A study of Drosophila melanogaster with 2 samples.

Results

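Homeobox genes encode transcription factors that bind DNA through a homeodomain, and those described here are 50 genes of *Drosophila melanogaster* that were listed as lying outside the Hox clusters. They were matched by exact symbol to the Ensembl annotation, all 50 were found, and they stand among 13945 protein-coding genes on the 6 main chromosome arms. Of these genes, 14 lie on 2R, 10 on 3R, 8 on 3L, 8 on X, 7 on 2L and 3 on chromosome 4. One entry goes against the listing, since *ftz* (3R 6864324 to 6866244) lies inside the Antennapedia complex, between *Scr*, which ends at 6849981, and *Antp*, which starts at 6896253. The measurement was chromatin immunoprecipitation with sequencing (ChIP-seq) for Zfh2, a zinc finger and homeodomain protein, in whole embryos of mixed sex collected from 0 to 24 hours of age. The single group consisted of 2 libraries, biological replicates 1 and 2, both from the strain zfh2-GFP, which stably carries Zfh2 with green fluorescent protein (eGFP) at its C terminus. The precipitation used an antibody against GFP. The promoter that drives the transgene is not given in the sources used here, nor is the state of the fly's own *zfh2* gene. There was no other condition, so no difference between groups could be tested. Because whole embryos of all stages were pooled, strong binding in few cells and weak binding in many cannot be told apart, and peak lists hold no expression values against which the tissue could be checked.

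Homeobox genes are sorted into classes by the sequence of the homeodomain and by the domains beside it, such as the LIM domains, the POU-specific domain, the paired domain or the SIX-type domain. In the embryo they set positions along the body axis, divide the segments, and fix the identity of neuroblasts, neurons, muscles and appendages. Many of them lie next to a paralogue with which they share regulatory sequence, and many have large introns and long flanks that hold enhancers.

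The submitters' list of peaks that passed a threshold on the irreproducible discovery rate (IDR), a measure of agreement between replicates, held 4344 peaks on the dm6 assembly. Its members were the 4344 strongest calls of the list made from both replicates pooled, which held 30000 calls in all. The list for replicate 1 held 30000 calls and that for replicate 2 held 29690. The signal value given with each call is the peak caller's score, which has no fixed scale and ranks calls only within 1 list. Each summit was assigned to every gene whose body, extended by 1 kb at both ends, contained it. The tagged gene itself, *zfh2*, had 0 IDR peaks and 16 pooled calls by the same rule.

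An IDR peak was found at 7 of the 50 homeobox genes, 14% of them, beside 33.4% of all protein-coding genes. The 7 genes were *tup* of the LIM class, *otp* and *ey* of the paired class, *tin* of the NK-like class, *hth* of the TALE class, and *ct* and *dve* of the CUT class. Together they held 9 peaks, of which 6 lay inside the gene body and 3 in the flanks. At a promoter of the gene itself, within 500 bp of one of its transcription start sites (TSS), a peak was found for 1 homeobox gene, *tin*, which is 2% of them, beside 24.6% of protein-coding genes. All 4 POU genes, all 6 Hox-like genes, all 3 SIX-class genes and *pros*, the only Prospero gene, were without an IDR peak. These are counts beside the background, and no test was made of a list whose members were chosen with results in view.

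The sequences of 7 of the 9 peaks are shown because they are the places on these genes where the fusion protein passed the threshold. Each holds the summit with 50 bases on each side, on the plus strand of dm6, read from the RefSeq copy of the same assembly. Capitals mark a match to 1 of 6 fixed words on either strand, and only the first sequence has any.
*hth* peak 1, chr3R:10564386-10564486: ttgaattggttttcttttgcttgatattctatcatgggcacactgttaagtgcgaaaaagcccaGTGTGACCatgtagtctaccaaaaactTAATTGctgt
*hth* peak 2, chr3R:10597740-10597840: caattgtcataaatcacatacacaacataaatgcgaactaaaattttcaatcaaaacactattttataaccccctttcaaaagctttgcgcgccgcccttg
*ct* peak 1, chrX:7618362-7618462: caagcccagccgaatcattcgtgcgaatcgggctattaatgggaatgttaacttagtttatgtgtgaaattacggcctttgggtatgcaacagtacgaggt
*ct* peak 2, chrX:7651759-7651859: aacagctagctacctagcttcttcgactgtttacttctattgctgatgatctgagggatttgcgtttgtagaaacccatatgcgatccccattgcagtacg
*tup* peak, chr2L:18859272-18859372: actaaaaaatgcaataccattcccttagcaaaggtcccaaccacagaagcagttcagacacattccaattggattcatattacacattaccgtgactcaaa
*ey* peak, chr4:696840-696940: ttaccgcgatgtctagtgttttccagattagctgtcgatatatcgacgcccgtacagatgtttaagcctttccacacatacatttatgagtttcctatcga
*tin* peak, chr3R:21378758-21378858: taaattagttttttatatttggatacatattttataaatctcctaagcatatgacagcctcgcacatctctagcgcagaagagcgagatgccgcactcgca

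The first *hth* sequence held GGTCACAC, part of the core promoter motif known to be bound by M1BP, written here on the other strand. It also held CAATTA, a homeodomain core word. Of the 9 peak windows, 1 held GGTCACAC, beside 2.14% of all 4344 IDR windows, and 1 held CAATTA, beside 9.16%. None of the 9 held TAATTA, another homeodomain core (6.98% of all IDR windows). None held TATCGATA, the DNA replication-related element bound by Dref (4.01%), GAGAGAG, a word of GAGA factor (1.10%), or CAGGTAG, the word of Zelda (0.483%). With so few windows and shares of this size, absence from all 9 carries little information. Mean GC content was 40.9% in the 9 windows and 37.8% in all IDR windows.

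The strongest of the 9 peaks lay at *otp*, which encodes a paired-class factor of brain and hindgut. Its summit (2R 20884594) had an IDR-list signal of 341 and ranked 293. The signal was 228 in replicate 1, at rank 181, and 113 in replicate 2, at rank 646. The summit lay in a coding exon near the 3' end, 95.1% of the way along the gene and 12990 bp from the nearest TSS of *otp*. The closest TSS of any gene was that of *Cib2*, 4664 bp away. Coding exons outside promoters held 9 of all 4344 IDR summits (0.207%), and the *otp* summit had the highest signal of these.

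The peaks of *hth* and *ct* lay deep in introns. *hth* encodes a TALE-class cofactor that helps carry Exd, and with it the Hox proteins, to DNA. Its first peak (summit 3R 10564436) had an IDR-list signal of 120, with 75.6 found in replicate 1 against 46.7 in replicate 2. This summit lay 49840 bp downstream of the nearest start site of *hth*. Its other peak (summit 3R 10597790) reached 114 in that list, with 45.7 for replicate 1 against 68.6 for replicate 2, and lay 16486 bp downstream. The replicates thus ordered the pair differently, replicate 1 with the first peak higher and replicate 2 with the other. *ct* encodes a CUT-class factor of external sense organs. Its peak at summit X 7618412 reached 113, with 61.3 for replicate 1 against 44.9 for replicate 2, at 9264 bp from a start site. Its peak at summit X 7651809 reached 112, with 73.3 for replicate 1 against 38.5 for replicate 2, at 19587 bp from a start site. For all 4 of these summits the nearest TSS of any gene belonged to the gene itself.

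**Figure D1:**
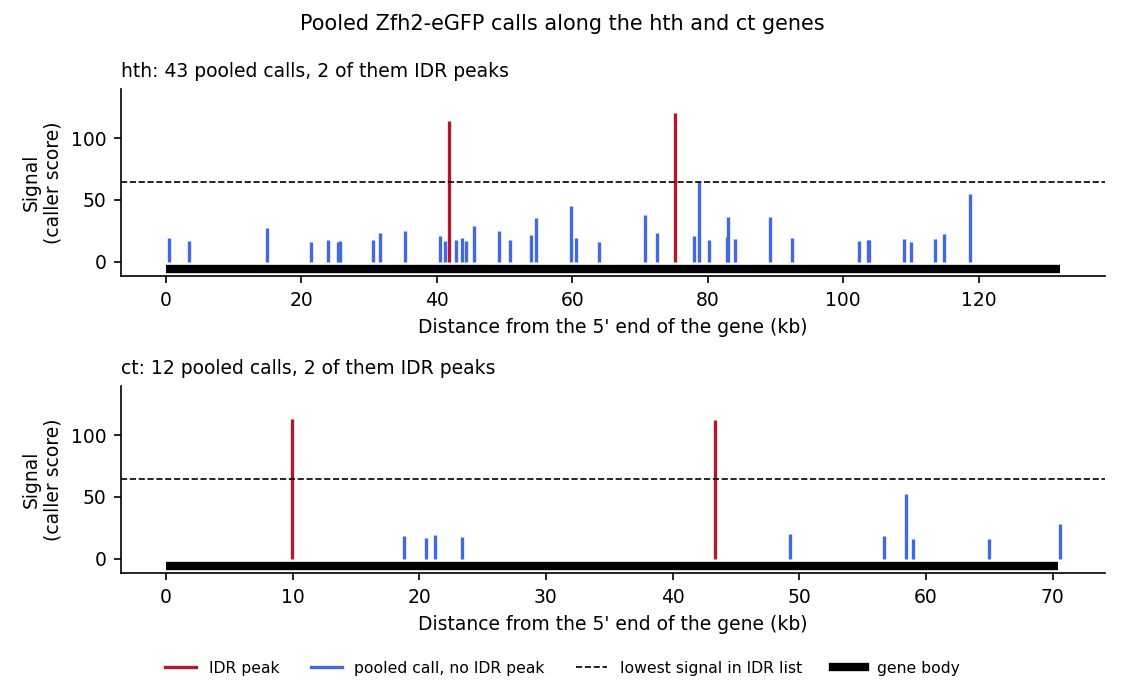
Pooled calls along *hth* and *ct*, with distance from the 5' end of the gene in kb on the x axis and the caller's signal on the y axis. Of 43 calls at *hth* and 12 at *ct*, 2 at each gene stand above the dashed line at 64.9, the lowest signal in the IDR list, and 1 *hth* call ends just under it.

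The other 4 peaks were weaker and sat in different places. *tup* encodes the Islet factor of motor neurons and heart, and its peak (summit 2L 18859322) reached an IDR-list signal of 97.7, with 61.8 for replicate 1 against 30.2 for replicate 2. That summit lay 185 bp past the 3' end of *tup*, 21939 bp from its start, and 74 bp upstream of the TSS of *CG10602* and *mRpL13*. *ey*, a Pax6 gene of eye development, had a peak 799 bp upstream of its start (summit 4, 696890) whose IDR-list signal was 94.1, with 49.8 for replicate 1 against 43.1 for replicate 2. *tin*, which specifies heart and dorsal mesoderm, had a peak 169 bp upstream of its start (summit 3R 21378808) whose IDR-list signal was 85.5, with 28.2 for replicate 1 against 55.1 for replicate 2. *dve*, a gene of midgut and photoreceptors, had an intronic peak at position -757 bp from the nearest of its start sites (summit 2R 22270161), whose IDR-list signal was 65.8, with 29.7 for replicate 1 against 31.0 for replicate 2. The first 3 of these summits lay outside the gene body. Replicate 1 gave the higher signal at *tup* and *ey*, and replicate 2 at *tin* and *dve*.

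Over the 9 peaks, replicate 1 gave the higher signal at 6 and replicate 2 at 3, but the lists differ in scale. Ranks were closest for *ey*, at 2883 in replicate 1 and 2866 in replicate 2, and farthest apart for *tin*, at 6147 and 2064. When the 4344 highest calls of replicate 2 stood in for the IDR list, 8 of 50 homeobox genes held one, beside 33.4% of protein-coding genes. These were *inv*, *tin*, *ey*, *otp*, *hth*, *so*, *ct* and *dve*. With those of replicate 1 there were 7, beside 32.9% of protein-coding genes, namely *Dll*, *ey*, *otp*, *tup*, *hth*, *mirr* and *ct*. The genes *ey*, *otp*, *hth* and *ct* were on both lists. The place of *tup* among genes with a strong call thus rested on replicate 1, since its call in replicate 2 ranked 4370, just beyond that limit. Those of *tin* and *dve* rested on replicate 2, since they ranked 6147 and 5704 in replicate 1.

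**Figure D2:**
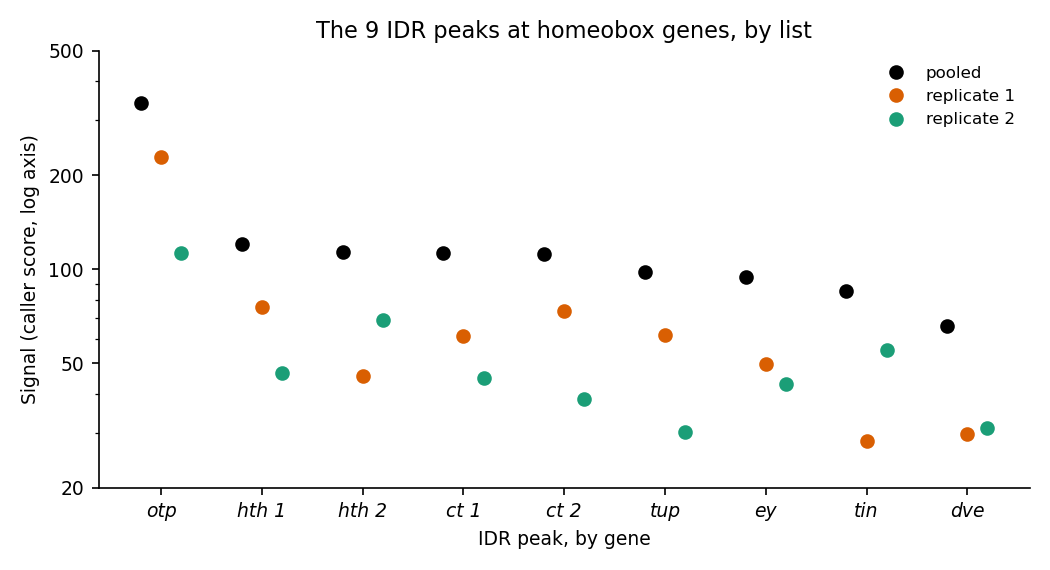
Signal of the 9 IDR peaks at homeobox genes on a log axis, in the pooled list and in each replicate, with the numbers after *hth* and *ct* giving their peaks in order of pooled signal. The *otp* peak is highest in all 3 lists (341, 228 and 113), and *tin* and *hth* peak 2 are clearly higher in replicate 2 than in replicate 1.

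Among homeobox genes with an IDR peak, the median of the strongest signal was 97.7, beside 135 over the 4654 protein-coding genes with a peak. The IDR threshold fell close to several homeobox genes. Just inside it was *dve*, at 65.8 and rank 4275. Just outside were a further call in *hth* at 64.8 (rank 4347), a call in the body of *inv* at 64.0 (rank 4412), and a call 260 bp upstream of *so* at 60.1 (rank 4740).

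Homeobox genes are long, with a median body of 12617 bp beside 2166 bp for all protein-coding genes, and long genes carried peaks more often. Of genes with a body under 2 kb, 0 of 4 homeobox genes carried a peak, beside 22.3% of protein-coding genes of that length. From 2 to 10 kb it was 1 of 17 beside 40.5%, and from 10 to 50 kb it was 4 of 26, 15.4%, beside 49.4%. Over 50 kb, *hth* and *ct* carried peaks and *pros*, which directs the fate of neuroblast daughters, did not, which is 2 of 3 beside 54.4%.

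**Figure D3:**
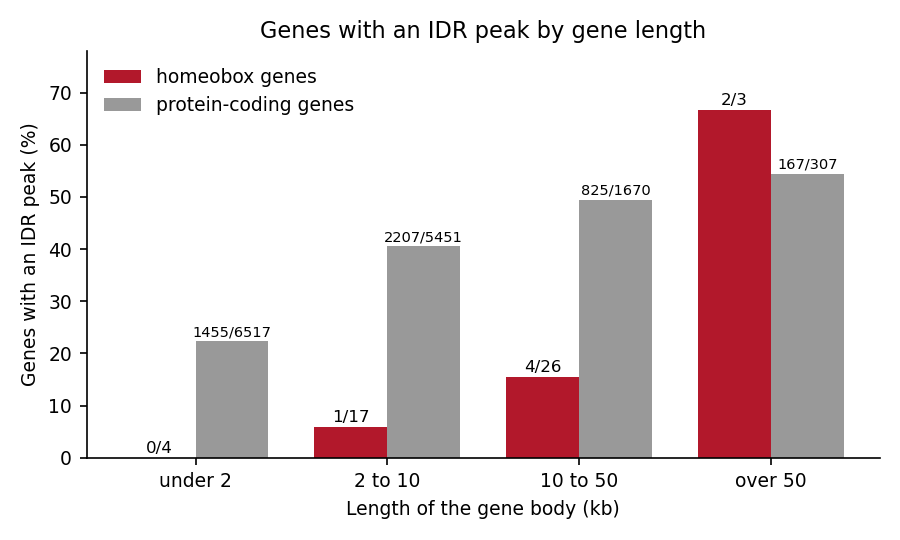
Share of genes with an IDR peak in the body or within 1 kb, in percent, by length of the gene body, with the counts above the bars. Homeobox genes stand below protein-coding genes in the 3 shorter ranges (5.88% beside 40.5% from 2 to 10 kb), and the range over 50 kb holds only 3 homeobox genes.

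IDR summits were also counted per length of sequence. Over all protein-coding genes they came to 153 per Mb in the first 1 kb outside the bodies and 25.6 in the bodies. A density therefore still depends on gene length, and none matched for length was computed. Bodies with 1 kb on each side covered 1078777 bp over the 50 genes and held 8.34 IDR summits per Mb, beside 41.4 for all protein-coding genes taken the same way and 32.4 for the main arms as a whole. Pooled calls came to 143 per Mb beside 265, replicate 1 calls to 162 beside 270, and replicate 2 calls to 132 beside 254. Without *hth* and *ct*, left out because they held 55 of the 154 pooled calls, the other 48 genes had 5.73 IDR summits and 113 pooled calls per Mb. In 5 homeobox genes the density of pooled calls was above that of all protein-coding genes together. These were *exex* (372 per Mb from 2 calls), *cad* (347 from 5), *exd* (331 from 2), *hth* (321 from 43) and *vvl* (295 from 2).

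At the level of weaker calls, 34 of the 50 homeobox genes had at least 1 pooled call (68%, beside 73.5% of protein-coding genes). In replicate 1 the count was 36 (72% beside 74.3%), in replicate 2 it was 35 (70% beside 73.7%), and 29 had calls in both (58% beside 65.2%). A call in replicate 1 alone was found at 7 genes (14% beside 9.11%) and in replicate 2 alone at 6 (12% beside 8.51%). These shares lie near their backgrounds, but they are not matched for gene length. By length of the body, the median number of pooled calls was 0 beside 1 under 2 kb and 1 beside 2 from 2 to 10 kb. It was 2.5 beside 6 from 10 to 50 kb and 12 beside 13 over 50 kb. Lists of this length hold background as well as sites, so they say where reads were called and not how many sites are bound. Where a homeobox gene had a pooled call, its strongest one had a median signal of 27.2, beside 56.4 over the 10244 protein-coding genes with one. Of the 154 pooled calls at homeobox genes, 97 or 63% lay in introns, beside 37.7% of all pooled calls. Promoters of any gene held 31 or 20.1%, beside 32.8%. These shares are not like for like. The 154 come only from the bodies of long genes with 1 kb around them, and 55 lay at *hth* and *ct*. All pooled calls include those between genes, with 14.2% intergenic beside 5.19%. Both replicates had a summit within 200 bp at 47 of the 154 (30.5%), beside 45.1% of all pooled calls. A further 62 had one in replicate 1 alone (40.3%, beside 28.6%), 22 in replicate 2 alone (14.3%, beside 19.3%), and 23 in neither (14.9%, beside 6.97%).

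Such weaker calls were also counted at the promoters of the homeobox genes. A pooled call lay within 500 bp of a TSS of the gene itself for 24 of 50 genes (48%, beside 55.8% of protein-coding genes), where only *tin* had passed the IDR threshold. Among the 10 genes of highest pooled signal without an IDR peak, several had their strongest call just upstream of the start. *so*, which acts with Ey in eye formation, had its call at 260 bp upstream, with a signal of 27.6 in replicate 1 and 39.4 in replicate 2. *C15*, a gene of the distal leg, had 45.7 in the pooled list at 280 bp upstream, 32.6 in replicate 1 and 13.2 in replicate 2. The appendage selector *Dll* had 41.7 at 127 bp upstream and 38.1 in replicate 1, with no call within 200 bp in replicate 2. The Iroquois gene *mirr* had 51.1 at 565 bp upstream, beyond the 500 bp limit, with 54.7 in replicate 1 and no call within 200 bp in replicate 2. *nub*, a POU gene of neuroblasts and wing, had 43.1 at 531 bp upstream, also beyond that limit, with 29.1 in replicate 1 and 15.8 in replicate 2.

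In the other 5 the strongest call lay elsewhere. *inv*, the paralogue of *en*, had its call of 64.0 in an intron 24878 bp from the start, with 33.5 in replicate 1 and 39.4 in replicate 2. *Lim1* had 40.9 in an intron, 5167 bp from the start. *cad*, a posterior patterning gene, had 30.2 in an intron, and *ara* of the Iroquois complex had 27.9 in one. For *Six4*, a gene of mesoderm and gonad, the call of 40.5 lay 714 bp past the 3' end of the gene and 35 bp upstream of *CG11396*.

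**Figure D4:**
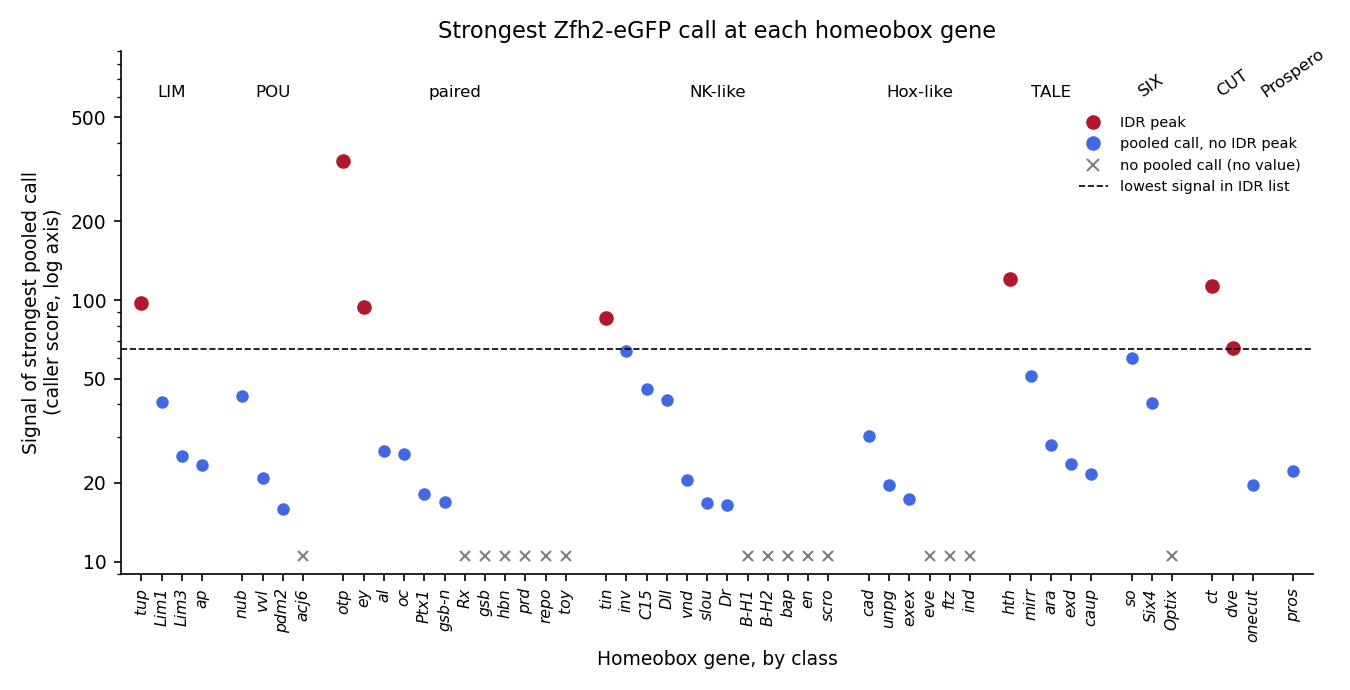
Signal of the strongest pooled call at each of the 50 homeobox genes on a log axis, grouped by class, with crosses for the 16 genes that had no pooled call and so no value. The 7 genes with an IDR peak stand above the dashed line at 64.9, led by *otp* at 341, and *inv* lies just under it at 64.0.

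A total of 16 genes had no pooled call. Of these, 8 had no call in either replicate as well, which is 16% of the 50 genes beside 16.4% of protein-coding genes, a share near the background. They were the pair-rule genes *ftz*, *eve* and *prd*, the segment polarity gene *gsb*, the neuroblast column gene *ind*, the visceral mesoderm gene *bap*, the brain gene *hbn* and the glial gene *repo*. The other 8 were *en*, *B-H1*, *B-H2*, *scro*, *toy*, *Rx*, *acj6* and *Optix*, which had from 1 to 4 calls in 1 or both replicates, with signals of at most 14.8. *toy* had the most, with 4 calls in replicate 2 up to 13.9 and none in replicate 1.

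By class, the 4 LIM genes all had pooled calls, with the most at *Lim1* (9 pooled calls, 8 in replicate 1 and 7 in replicate 2). *Lim3*, which with Tup sets motor neuron identity, had 3 pooled calls up to 25.3, and the dorsal wing selector *ap* had 3 up to 23.4. Of the 4 POU genes, 3 had pooled calls, none above the 43.1 of *nub*. Of the 12 paired genes, 6 had pooled calls, and after *otp* and *ey* the next were *al* at 26.4 and the head gene *oc* at 25.7. Of the 12 NK-like genes, with *en* and *inv* counted here, 7 had pooled calls. The 3 factors that divide the neuroectoderm into columns were low: *vnd* had 20.5, *Dr* had 16.5, and *ind* had none. The 6 Hox-like genes had 3 with pooled calls, up to the 30.2 of *cad*. All 5 TALE genes had pooled calls, and 43 of their 55 lay at *hth*, while *exd*, which encodes the partner of Hth, had 2 up to 23.7. Of the 3 SIX-class genes, *so* and *Six4* had 1 pooled call each and *Optix* had none. All 3 CUT genes had pooled calls, with 12 at *ct*, 8 at *dve* and 1 at *onecut*. *pros*, the only Prospero gene, had 1 pooled call over 79148 bp, at 22.1 and 3 bp from a start site. Neither replicate had a call within 200 bp of that summit, while *pros* held 3 calls in replicate 1 and 5 in replicate 2. Classes of 1 to 12 genes are too small to be set against each other.

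Regions that hold neighbouring paralogues were examined whole, gaps included, and calls were counted in them and within 1 kb of either end. The main arms held 32.4 IDR summits per Mb, so a count of 0 in the shorter regions says little. Pooled calls ran from 33.1 per Mb (*B-H2* to *B-H1*) to 195 (*ey* to *toy*), beside 224 for the main arms. From *inv* to *en* (2R, 53.7 kb) there were 0 IDR peaks and 7 pooled calls. All 7 lay at *inv* and none at *en*. The Iroquois complex from *ara* to *mirr* (3L, 130 kb) held 0 IDR peaks and 21 pooled calls. From *nub* to *pdm2* (2L, 98.7 kb) there were 0 and 12, and from *gsb-n* to *gsb* (2R, 24.3 kb) there were 0 and 2. Between *B-H2* and *B-H1* (X, 88.7 kb), 1 of 3 pooled calls was an IDR peak. It had a signal of 91.9 and lay in intergenic sequence, 6323 bp from the body of *B-H2* and 15917 bp from its start, which was the nearest TSS. The NK genes *tin*, *bap*, *C15* and *slou* lie within 178 kb of 3R that also hold 14 other genes. The 4 IDR peaks counted there included the *tin* peak and were led by one of 417, which lay 548 bp upstream of *sp3* and 7566 bp from *C15*. From *otp* through *Rx* to *hbn* (2R, 77.3 kb), the peak in *otp* was the only IDR peak. On chromosome 4, *ey* and *toy* are 310 kb apart end to end with 19 other genes between or across them, and 4 IDR peaks, that of *ey* among them, and 61 pooled calls were counted there.

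The surroundings of the homeobox genes were also low in peaks, up to some distance. The median distance from a gene body to the nearest IDR summit was 20217 bp for the 50 genes and 4454 bp for all protein-coding genes. Among genes of 10 to 50 kb the medians were 20313 and 1159 bp. For 20 of the 50 (40%) the nearest summit was 20 to 50 kb away, as it was for 13.2% of protein-coding genes. Per Mb, IDR summits came to 6.13 in the bodies, 30.0 in the first 1 kb outside and 15 from 1 to 5 kb, where all protein-coding genes had 25.6, 153 and 58.8. From 5 to 10 kb the values were 18.0 and 53.4, from 10 to 20 kb 30.0 and 49.8, and from 20 to 50 kb 39.7 and 43.4. A summit counts for each gene it lies near, and the first 1 kb around homeobox genes held only 3 summits, those of *tup*, *ey* and *tin*.

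**Figure D5:**
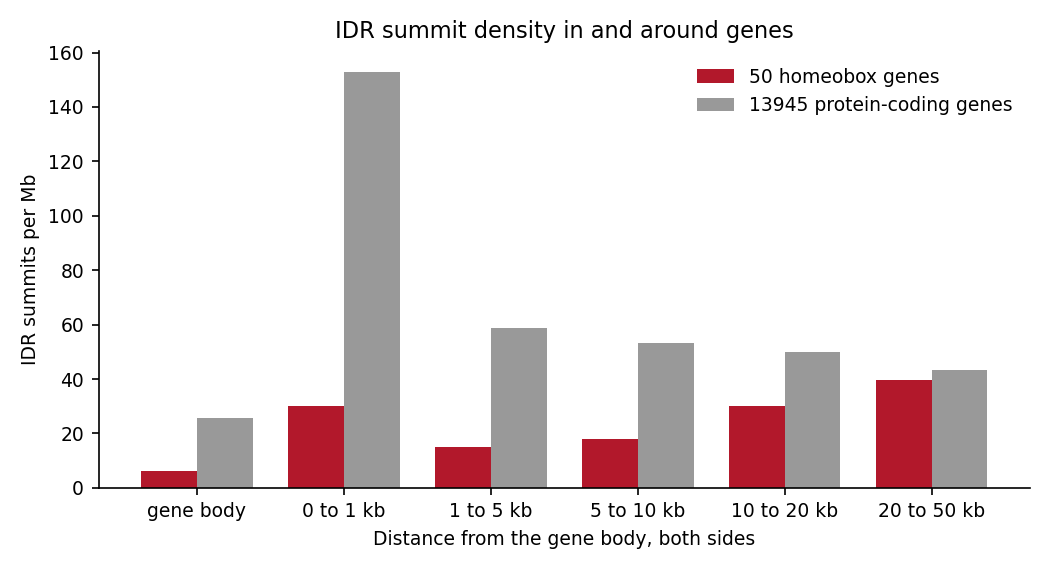
IDR summits per Mb in gene bodies and in flanks of increasing distance on both sides, for the 50 homeobox genes and for all 13945 protein-coding genes. The homeobox bars are lower in the body and in each flank out to 20 kb, and the bars are near each other from 20 to 50 kb (39.7 and 43.4).

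For 31 of the 43 homeobox genes without a peak (72.1%), the nearest IDR summit lay in a promoter, as it did for 73.0% of the 9291 protein-coding genes without one. For 2 of the 43, *B-H2* and *vvl*, the nearest TSS to that summit was their own. The peak nearest to *pros*, 2244 bp away, was 4 bp from the start of *mgr*. That nearest to *repo*, 2838 bp away, was 91 bp upstream of *14-3-3epsilon*, and that nearest to *unpg*, 3113 bp away, was at the start of *CG8026* and *CG45085*. For *eve* the distance was 8183 bp, to the promoter of *CG12134*, and for *exd* it was 5550 bp, to that of *ND-20*. For *en* it was 65521 bp, to a summit upstream of *tou*, and for *Lim1* it was 36052 bp, to the promoter of *CG1789*. *scro* lay farthest, 1386010 bp from the nearest IDR summit on 3L.

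Promoter sequence was examined because only *tin* had an IDR peak at its own promoter. The window ran from 250 bases before to 50 after the outermost TSS of each gene, and the same 6 words were sought on both strands. TATCGATA occurred in 2 of the 50 windows (4%), those of *vnd* and *exd*, beside 9.36% of all protein-coding promoters, and GGTCACAC in 0 beside 7.70%. GAGAGAG occurred in 12 (24%) beside 5.87%, and they were *en*, *exex*, *B-H1*, *Dr*, *gsb*, *Ptx1*, *hbn*, *Rx*, *caup*, *mirr*, *ct* and *dve*. TAATTA occurred in 1 (2%) beside 20.4%, CAATTA in 2 (4%) beside 25.2%, and CAGGTAG in 1 (2%) beside 1.64%. Base composition goes with these shares, since the homeobox windows had a mean GC content of 52.4% and all protein-coding windows 39.1%, and its part in them was not tested. Over all protein-coding genes, 44.1% of the 1305 with TATCGATA in this window carried an IDR peak at a promoter, as did 21.5% of the 818 with GAGAGAG and 21.3% of the 6465 with none of the 6 words. For the other words that share over all protein-coding genes was 37.5% with GGTCACAC, 27.4% with TAATTA, 23.2% with CAATTA and 16.6% with CAGGTAG. Among homeobox genes the counts were 0 of 2 with TATCGATA, 0 of 12 with GAGAGAG and 1 of 32 with none of the 6 words. In 5 of the 12 with GAGAGAG a pooled call lay within 500 bp of any TSS of the gene. For *ct* that call (summit X 7631796) lay at another TSS than the one in the window.

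Promoters of 4 genes are printed to show these words, in the direction of the gene, from dm6 by way of RefSeq. Capitals mark TATCGATA in *exd* and GAGAGAG or its complement CTCTCTC in the others, where overlapping matches run together.
*exd* promoter, chrX:15992218-15992517: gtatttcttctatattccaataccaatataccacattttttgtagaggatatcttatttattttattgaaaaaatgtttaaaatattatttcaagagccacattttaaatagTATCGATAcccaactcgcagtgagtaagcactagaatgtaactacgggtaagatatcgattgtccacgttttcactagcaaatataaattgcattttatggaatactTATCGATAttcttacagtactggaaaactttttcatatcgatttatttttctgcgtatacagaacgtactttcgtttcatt
*Dr* promoter, chr3R:29556136-29556435: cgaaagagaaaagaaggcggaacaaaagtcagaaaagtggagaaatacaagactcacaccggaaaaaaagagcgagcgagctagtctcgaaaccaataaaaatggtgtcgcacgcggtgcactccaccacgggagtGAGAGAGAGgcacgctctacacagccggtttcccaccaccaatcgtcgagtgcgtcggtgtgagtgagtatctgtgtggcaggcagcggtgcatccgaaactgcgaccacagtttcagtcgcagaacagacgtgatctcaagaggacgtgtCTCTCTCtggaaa
*Ptx1* promoter, chr3R:30912504-30912803: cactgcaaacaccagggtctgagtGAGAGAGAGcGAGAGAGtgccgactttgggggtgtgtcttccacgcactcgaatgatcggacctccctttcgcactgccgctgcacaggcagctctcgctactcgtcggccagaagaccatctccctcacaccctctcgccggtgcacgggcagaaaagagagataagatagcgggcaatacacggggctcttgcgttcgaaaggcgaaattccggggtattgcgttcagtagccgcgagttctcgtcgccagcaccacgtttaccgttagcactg
*ct* promoter, chrX:7608178-7608477: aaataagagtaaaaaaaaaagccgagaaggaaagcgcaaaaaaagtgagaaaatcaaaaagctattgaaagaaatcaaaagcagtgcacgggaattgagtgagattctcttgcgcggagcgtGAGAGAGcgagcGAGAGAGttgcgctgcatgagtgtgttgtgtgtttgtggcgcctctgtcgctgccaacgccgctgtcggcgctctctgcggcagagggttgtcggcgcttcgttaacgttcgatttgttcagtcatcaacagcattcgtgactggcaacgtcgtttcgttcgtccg

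The *exd* promoter has 2 copies of TATCGATA and a GC content of 29.0%. The strongest pooled call of *exd* was 23.7, found in replicate 2 alone at 17.3. Its summit (X 15992652) lay outside the printed window, 48 bp upstream of another start site of *exd*. The *Dr* promoter had a pooled call of 16.5 at 104 bp upstream, with 20.1 in replicate 1 and none in replicate 2. At *Ptx1*, a gene of the Pitx family, a call of 16.8 lay 140 bp upstream, with 11.4 in replicate 1 and none in replicate 2. A word match describes the letters and does not show that a factor binds there.

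Other homeobox genes were taken from lists written from general knowledge. Of 34 further homeobox genes outside the Hox clusters, 9 carried an IDR peak (26.5%), with 3 at a promoter. They were *zfh1* (259.6), the paralogue of *zfh2*, *NK7.1* (251), *ro* (156), *btn* (90.6), *OdsH* (89.1), *PHDP* (86.7), *Lmx1a* (74.0), *Vsx1* (72.2) and *vis* (66.0). Of 11 homeobox genes in the Hox clusters, 3 did (27.3%), namely *bcd* (118), *Antp* (109) and *Ubx* (103). Set beside the 14% of the 50 genes and the 33.4% of all protein-coding genes, these are counts without a test, and no difference between the lists is claimed.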

How the data were processed

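Peak lists in narrowPeak layout were deposited for dm6 and dm3, and only the 4 dm6 lists were used: IDR, pooled, replicate 1 and replicate 2. The authors called peaks against a control alignment, derived the IDR list from the relaxed lists and gave each call a signal value, which is a score without fixed units, per the deposited file descriptions. The aligner is not given in the sources used here, nor are the caller, any version or the reads per library. Depth is therefore unknown, and no interval was computed. Chromatin was sheared to 200 to 800 bp, per the labels.

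Summits were joined to Ensembl release 115 genes (same assembly, transposable elements left out) within 1 kb of the body, with pandas 2.3.3 and numpy 2.4.6 in Python 3.11.15. Promoters were 500 bp around a TSS. Replicate calls were matched within 200 bp. The assignment of summits to genes was tested on simulated data, where all 200 genes given a summit were recovered. No statistical test was run: counts stand beside all protein-coding genes. Members, lists, words and alternatives were chosen with earlier results of these data known. The text names every member with an IDR peak, the 10 strongest without one, those without a pooled call and neighbouring paralogues. *en* and *inv* were placed with NK-like genes, by homeodomain family. Sequences on 2R are not printed.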

Additional observations from a re-analysis of the deposited data

How the results depend on the processing

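The count of homeobox genes with an IDR peak, 7 of 50, was 4 with no margin around the body (background 11.7% of protein-coding genes), 11 with a margin of 5 kb (52.1%) and 2 in the 2172 strongest IDR peaks (20.6%). It was 7 with each summit given to the nearest TSS alone (22.4%) and 7 by overlap of the interval (34.4%). With summits nearer to the TSS of another gene left out it was 5 (21.2%). In the strongest pooled calls, which are the IDR list itself, it was 7 (33.4%). The genes were not the same with the nearest TSS, where *B-H2* and *vvl* entered and *otp* and *tup* left. The promoter count of 1 was 3 with promoters of 1 kb (background 27.5%), when *ey* and *dve* entered. It was 1 with 250 bp (20.5%) and 0 in the 2172 strongest peaks (14.8%). The 34 genes with a pooled call became 15 in the 10000 strongest pooled calls (background 51.1%). The number of classes with a peak, 5 of 9, was 3 with no margin. With each replicate left out in turn, the gene count ran from 7 to 8 and the promoter count from 1 to 2. The count with any call ran from 35 to 36, and the median distance from 18035 to 19390.5 bp. The promoter genes were *tin* and *so* without replicate 1, and *Dll* alone, not *tin*, without replicate 2. The number of classes stayed at 5 in each case, but without replicate 1 the LIM class left and the class of *so* entered. Of 36 recomputed class counts, 26 were equal or stayed within 1.5 times, 5 rose further and 5 fell further. The 26 include counts that were 0 both before and after, such as those of the POU class in every setting. The share of homeobox genes called was below that of all protein-coding genes in each of these settings, except that 27 of 50 had a pooled call with no margin, beside 47.7% of protein-coding genes. No paired analysis was possible because there was 1 group. Unknown depth limits what the absence of a call can show.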

Other observations

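Calls in 1 replicate alone were also looked at gene by gene. Of the genes without a pooled call, *en* (13.5) and *B-H2* (13.7) had 1 call each in replicate 1 alone. In replicate 2 alone, *toy* had 4 (up to 13.9), *Rx* had 2 (up to 11.0), *acj6* had 2 (up to 11.1), and *scro* (13.8) and *B-H1* (7.77) had 1 each. *Ptx1*, *vvl* and *ara* had 3, 3 and 4 calls in replicate 1, with signals up to 26.8, 29.5 and 27.7, and none in replicate 2. *Dll* and *Dr* had 1 call each in replicate 1, of 38.1 and 20.1, and none in replicate 2. *pdm2* had 5 calls in replicate 2, up to 9.67, and none in replicate 1.

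The *otp* peak was also narrow, at 257 bp, where the other 8 peaks at homeobox genes and the median IDR peak were 400 bp wide. IDR peaks under 300 bp numbered 1060. After it, the strongest IDR summit in a coding exon had a signal of 136, with *CG31259* as the nearest TSS.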
